A study of Mus musculus with 2 samples.

Results

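T and NK cells of the mouse optic cup were chosen by their transcripts in 2 droplet single-cell RNA libraries. A cell entered when it held at least 1 unique molecular identifier (UMI, a tag that counts an RNA molecule once) of at least 2 of 6 marker genes, Cd3e, Cd3d, Cd3g, Trbc2, Nkg7 and Gzma. It was left out when it held any UMI of 8 genes of other cells: C1qa, C1qb, Csf1r, Cd79a, Cldn5, Rpe65, Dcn and Krt5. The rule found 102 of 62485 kept cells, 46 of 23200 in the library labelled sponge (sponge cells) and 56 of 39285 in the library labelled GFP (GFP cells). Both groups are Abca4KO mice, which lack a transporter that photoreceptors use to remove toxic products of the visual cycle. The first group received the vector labelled AAV2.8-Sponge.mir181, an adeno-associated virus made to deliver a transcript that binds miR-181a and miR-181b, and the second received AAV2.8-GFP. Per the series each vector went under the retina of 1 eye at 2 months of age and tissue was taken 4 months later, whereas the labels give an age of 4 months. Each group is 1 library of papain-dissociated optic cup, and the sources used here give neither its number of mice nor the promoter of its vector. The comparison addresses which transcripts of lymphocytes in the eye differed between the libraries when miR-181a/b were the target of the sponge.

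With 1 library per group there was no replicate check and no test, cells of 1 library being no replicates. Every interval is an exact 95% interval for counting error alone and covers no difference between mice, eyes, injections or dissociations. The sponge library held 132067896 UMIs, a median of 2980.5 per kept cell, and the GFP library 123040365 UMIs, a median of 2415. eGFP was counted 5484 times in kept cells of the sponge library, against 12 times in the GFP library. These counts do not bear out the labels, so every direction below is that of libraries named by their labels. An eGFP gene in the sponge vector and an exchange of the labels cannot be told apart here, and an exchange would turn every direction below, that of the miR-181 targets included. No T or NK cell of either library held an eGFP UMI. Kept cells of both libraries shared 287 barcodes, of which 1 was a T or NK cell in the sponge library and 1 in the GFP library.

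T cells recognise peptides on MHC molecules through a receptor of alpha and beta, or gamma and delta, chains, and the CD3 chains carry its signal into the cell. CD8 T cells read class I molecules and kill, CD4 T cells read class II molecules and help or restrain other cells, and NK cells kill without such a receptor. The healthy retina holds few lymphocytes behind its blood barrier, while the choroid and uvea around it hold more. In mouse T cells miR-181a is known to lower phosphatases that damp signals from the receptor. The mature microRNAs that the sponge is named for are shown because the comparison turns on them, with bases 2 to 8, the seed that pairs with targets, in capitals (RefSeq, GRCm38.p6). The first is encoded on chromosome 1 at 137966468 to 137966490 and on chromosome 2 at 38852741 to 38852763, and the second on chromosome 1 at 137966650 to 137966673 and on chromosome 2 at 38853845 to 38853868, all on the plus strand.
mmu-miR-181a-5p: aACAUUCAacgcugucggugagu
mmu-miR-181b-5p: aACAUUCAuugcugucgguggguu
Both share 1 seed, so a match in a 3′ UTR reads TGAATGT.

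Matches in the 3′ UTRs of targets reported for lymphocytes are shown with 10 bases on each side, 5′ to 3′ on the gene's strand and with the match in capitals (GRCm38, GENCODE M21). They lie in Dusp5 at chr19:53542314-53542340 on the plus strand, in Bcl2 at chr1:106539821-106539847, in Cd69 at chr6:129267854-129267880 and in Nlk at chr11:78567704-78567730, the last 3 on the minus strand.
Dusp5: taaacccatgTGAATGTgaagagaagc
Bcl2: taatcaggacTGAATGTagataatggg
Cd69: taggaagagcTGAATGTaggtacagga
Nlk: acttgaaactTGAATGTcccttccaac
S1pr1 held 1 match, while none was found in the longest annotated 3′ UTRs of Ptpn22, Ptpn11 and Dusp6. Of 21045 genes with an annotated 3′ UTR, 3637 held a match.

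The markers that chose the cells are given as a description. Cd3e, the epsilon chain of CD3, had 100 UMIs in 37 of the 46 cells of the sponge library and 55 UMIs in 40 of the 56 cells of the GFP library. Cd3g had 183 UMIs in 36 sponge cells and 43 UMIs in 28 GFP cells. Trbc2, a beta-chain constant gene, had 135 UMIs in 39 sponge cells and 40 UMIs in 30 GFP cells. Cd3d had 72 UMIs in 31 sponge cells and 31 UMIs in 19 GFP cells, so that each CD3 gene was found in both libraries. Nkg7, a granule protein of killer cells, had 153 UMIs in 29 cells of the sponge library and 41 UMIs in 24 cells of the GFP library. Gzma, granzyme A, had 55 UMIs in 3 cells of the sponge library, 36 of them in 1 cell, and 10 UMIs in 5 cells of the GFP library. At the edge of the rule, 9 cells of the sponge library and 31 of the GFP library held exactly 2 markers. A further 168 cells of the sponge library and 128 of the GFP library held 1 marker and no exclusion gene. Those with 2 or more markers and an exclusion gene numbered 36 in the sponge library and 47 in the GFP library. Rpe65, of the retinal pigment epithelium, was in 15 of those left out of the sponge library and 14 of the GFP library, and Dcn, of fibroblasts, in 6 of the sponge library and 20 of the GFP library.

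The label was checked with 22 genes of the T cell receptor and its signalling that the rule did not use, such as Trac, Cd2, Cd28, Lck and Themis. A median of 10 of the 22 (range 0 to 15) was detected per cell of the sponge library and of 4.5 (1 to 13) per cell of the GFP library. At least 3 were detected in 43 sponge cells (93.5%) and 47 GFP cells (83.9%). Bipolar neurons should lack these genes. In them at least 3 were detected in 12 of 1710 cells (0.702%) of the sponge library, at a median depth of 7176 UMIs. In the GFP library it was 5 of 2091 (0.239%), at 2580 UMIs. Macrophages, which are leukocytes as well, were taken as cells with at least 2 of C1qa, C1qb and Csf1r and none of the 6 markers. Leaving out cells with a marker could itself lower their shares. Among these macrophages the shares were higher than in bipolar neurons. They were 115 of 856 (13.4%) in the sponge library, at 4856 UMIs, and 57 of 1255 (4.54%) in the GFP library, at 3368 UMIs. The 22 genes thus set the chosen cells apart less sharply from macrophages without a marker than from bipolar neurons. The cells just outside the rule, with 1 marker and no exclusion gene, had a median of 0 of the 22 genes in the sponge library and 1 in the GFP library. Those that held an exclusion gene had a median of 11 in the sponge library and 3 in the GFP library.

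**Figure D1:**
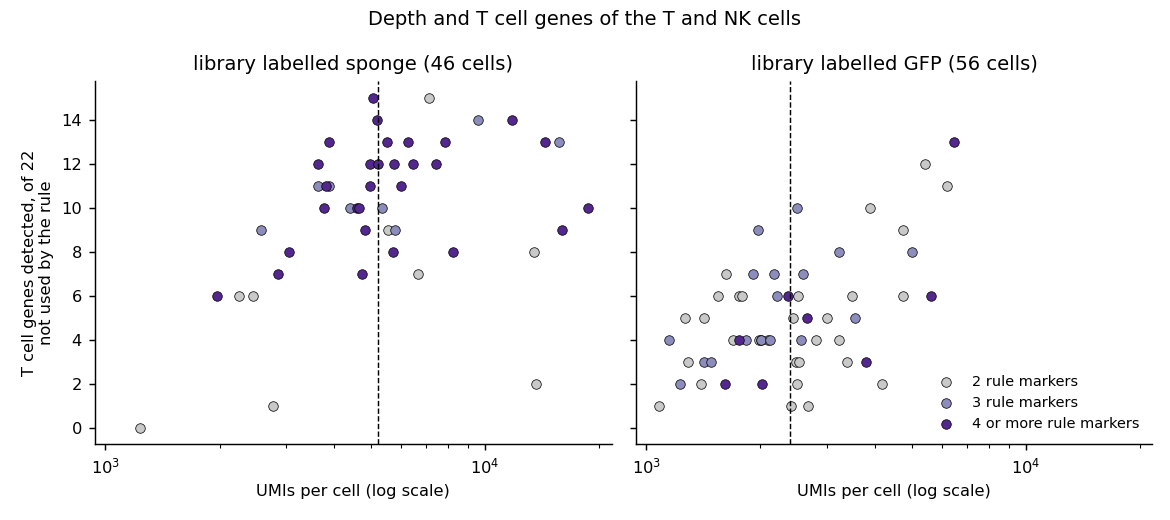
Each point is 1 T or NK cell, with its UMIs on a log scale (x axis) and the number of 22 T cell genes not used by the rule that were detected in it (y axis), in the library labelled sponge (left, 46 cells) and the library labelled GFP (right, 56 cells). Shades give the number of rule markers and dashed lines the median depth, 5209.5 UMIs (left) and 2386 UMIs (right). More T cell genes were detected in the deeper cells of the library labelled sponge, a median of 10, against 4.5 in the library labelled GFP.

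Few cells held the receptors that define mouse NK cells, while Klrd1 and Klrk1, which CD8 T cells also carry, were each detected in 24 sponge cells, against 9 GFP cells for Klrd1 and 12 GFP cells for Klrk1. Ncr1 or Klrb1c, the defining activating receptors, were detected in 3 cells (6.52%, 1.37 to 17.9) of the sponge library and in 0 of 56 cells of the GFP library, where the interval reaches 6.38%. None of those 3 cells held Cd3e or Cd3g, all 3 held Nkg7 and 2 held Gzma. Without a CD3 gene a cell could enter only with 2 of Trbc2, Nkg7 and Gzma. The rule thus limits how many NK cells could enter and bears on the Nkg7 and Gzma counts here. Cells with 1 marker were not examined for Ncr1 or Klrb1c. One of them, with 5778 UMIs, held 2 Ncr1, 2 Klrb1c, 4 Xcl1 and 36 Gzma UMIs. Genes of the antigen receptor's variable segments had too few UMIs to describe clones. Trav segments had 5 UMIs in 4 cells of the sponge library and 3 UMIs in 3 cells of the GFP library.

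Depth differed within the cells, and it bears on every share below. The 46 cells of the sponge library had a median of 5209.5 UMIs (1238 to 18665) and 2341 genes, and the 56 cells of the GFP library a median of 2386 UMIs (1081 to 6444) and 1374.5 genes. The median mitochondrial share of UMIs was 5.41% in sponge cells and 10.9% in GFP cells. T and NK cells were 0.198% of kept cells (0.145 to 0.264) in the sponge library and 0.143% (0.108 to 0.185) in the GFP library. The log2 ratio of the shares was 0.48 with an interval that includes 0 (-0.12 to 1.06). The rule needs detected UMIs, and with every kept cell thinned to 1000 UMIs the log2 ratio was 1.26 (0.54 to 1.99).

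The 30 genes that stood highest in T and NK cells over all other kept cells describe the class, both libraries summed. Levels are CPM, the UMIs of a gene over all UMIs of the same cells on the usual scale. Xcl1, a chemokine of CD8 T and NK cells that calls in dendritic cells, stood at 246.7 CPM, 409.7-fold its level in other kept cells. Ctla4, a receptor that restrains T cell activation, stood 311-fold higher at 557 CPM, and Themis, an adaptor of T cell receptor signalling, 304-fold higher at 385 CPM. Icos, a co-stimulatory receptor, was 301-fold, Klrd1, the NK receptor chain CD94, 244-fold and Cd28 243-fold over other cells. Klrk1, the receptor NKG2D, was 225-fold over them, Il18r1, a subunit of the interleukin-18 receptor, 178-fold, Stat4 153-fold and Il7r, the interleukin-7 receptor, 149-fold. Ccl5, a chemokine of memory and effector T cells, stood at 1082 CPM, against 9.09 CPM in other kept cells. Cxcr6, a receptor of tissue lymphocytes, was 35-fold over them. Ccr7, a homing receptor of naive cells, had 5 UMIs in sponge cells and 6 in GFP cells.

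CD8 cells were the commonest class that single genes could define. Cd8a or Cd8b1 without Cd4 was detected in 23 cells (50%, 34.9 to 65.1) of the sponge library and 14 cells (25%, 14.4 to 38.4) of the GFP library. In bipolar neurons, as background, it was 0.409% in the sponge library and 0.0956% in the GFP library. Cd4 without either CD8 gene was detected in 6 sponge cells (13.04%, 4.94 to 26.3) and 4 GFP cells (7.14%, 1.98 to 17.3). None of the 3 genes was detected in 15 sponge cells (32.6%) and 38 GFP cells (67.9%). With each cell thinned to 1000 UMIs, CD8 cells were 30.4% of sponge cells and 7.14% of GFP cells. CD4 cells were then 2.17% of sponge cells and 1.79% of GFP cells, and cells with none 67.4% of sponge cells and 91.1% of GFP cells. Requiring 3 of the 6 markers gave 56.8% of CD8 cells in the sponge library and 44.0% in the GFP library. The difference in CD8 share thus depends in size on the rule and the depth. Nkg7 and Gzma, which helped choose the cells, are genes of killer cells, so the rule could also favour CD8 over CD4 cells.

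CD8 cells of the sponge library held Nkg7, which the rule used, in 21 of 23 cells. These CD8 cells held Klrd1 in 20, Ctla4 in 19, Cxcr6 in 19, Pdcd1 in 18 and Ccl5 in 15. Those of the GFP library held Nkg7 in 13 of 14, Ccl5 in 8, Klrd1 in 4, Cxcr6 in 4, Pdcd1 in 4 and Ctla4 in 2. The granule enzymes of full killers were almost undetected. Gzmb had 1 UMI in the sponge library and 4 in the GFP library, and Gzmk 1 in the sponge library and 2 in the GFP library. Prf1, perforin, had 12 UMIs in sponge cells and 2 in GFP cells. Foxp3, which defines regulatory T cells, was detected in 1 cell of the sponge library, with 3 UMIs beside 23 of Ctla4, and in none of the GFP library. A single GFP cell of 6444 UMIs held 14 Mki67 UMIs, a gene of dividing cells, with 2 Cd4 and 18 Ctla4 UMIs.

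**Figure D2:**
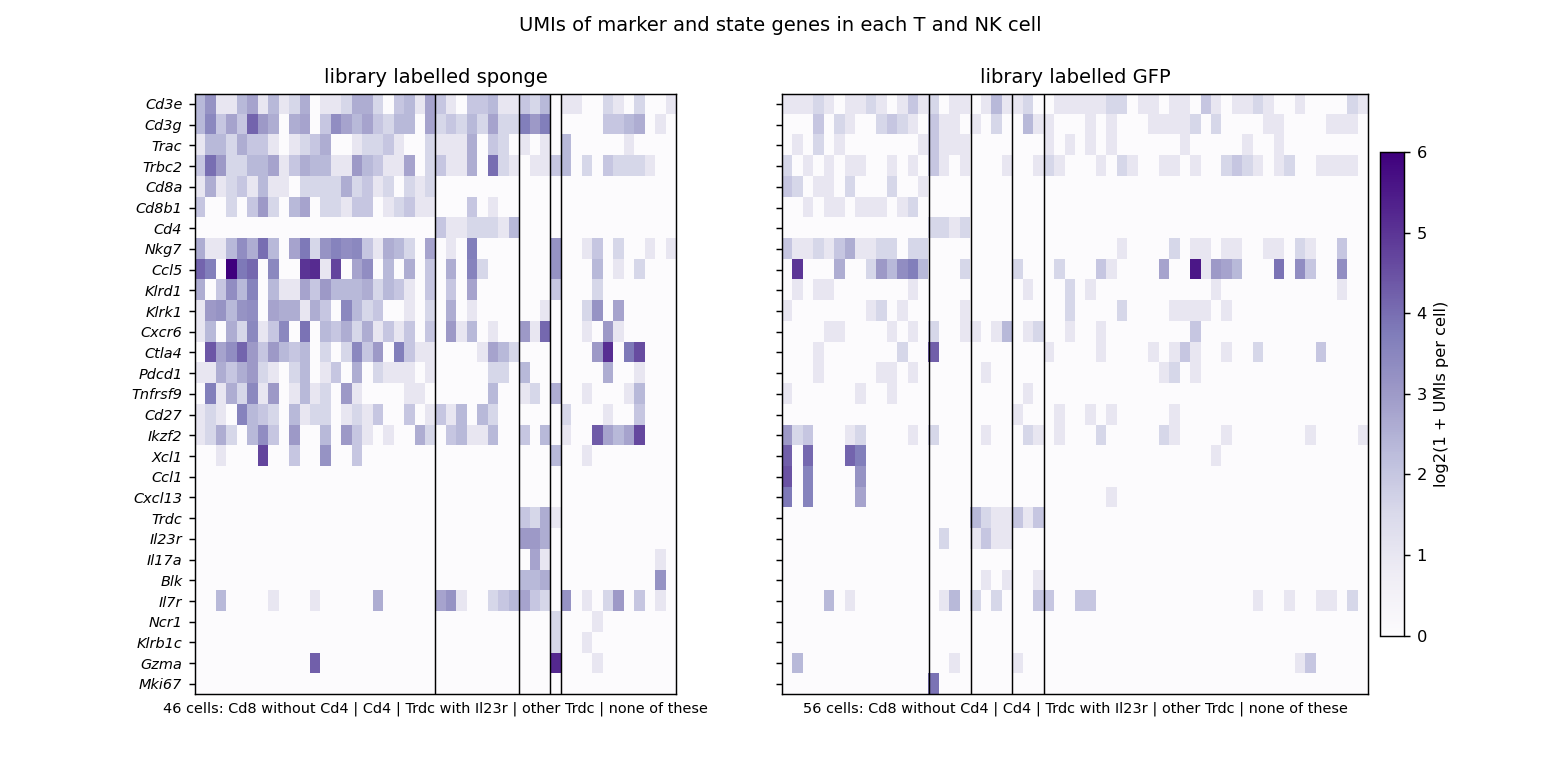
Columns are single T and NK cells of the library labelled sponge (left, 46 cells) and the library labelled GFP (right, 56 cells), rows are genes, and the shade is log2(1 + UMIs per cell). Cells run in 5 blocks, by depth within each: Cd8a or Cd8b1 without Cd4, any Cd4, Trdc with Il23r, other Trdc, and none of these. Klrd1, Ctla4, Pdcd1 and Cd27 fill much of the first block in the library labelled sponge, and 3 cells of the library labelled GFP hold Xcl1, Ccl1 and Cxcl13 together.

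Gamma-delta T cells were looked for by Trdc, the delta-chain constant gene (chr14:54142851-54148868, plus strand), which was detected in both libraries. Trdc was detected in 4 cells (8.70%, 2.42 to 20.8) of the sponge library and 7 cells (12.5%, 5.18 to 24.1) of the GFP library, and in 0 bipolar neurons of either. Thinned to 1000 UMIs the shares were 8.70% of sponge cells and 5.36% of GFP cells, in the other order, so neither library can be called higher. None of these 11 cells held a CD8 gene or Cd4. Among the 4 sponge cells was the cell of 5778 UMIs with Ncr1 and Klrb1c, which held 1 Trdc UMI and no Cd3e, Cd3d or Cd3g. Trac was detected in 2 of the 4 sponge cells and 0 of the 7 GFP cells. The shares are therefore those of cells with Trdc, not of gamma-delta T cells alone. Il23r, the receptor for interleukin-23, was in 3 of the 4 sponge cells and 4 of the 7 GFP cells, and Blk, a kinase of interleukin-17-producing gamma-delta cells, in 3 sponge cells and 3 GFP cells. The 3 sponge cells with Trdc and Il23r had 4399, 4753 and 5351 UMIs and held 5, 2 and 3 Trdc, 5, 7 and 7 Il23r and 12, 7 and 12 Cd3g UMIs. Il17a, the cytokine itself, had 8 UMIs in 3 cells of the sponge library and 0 in the GFP library, where 3 counts would be 20.2 CPM.

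Summed counts of the T and NK cells were compared between libraries next. The sums were 293109 UMIs in the sponge library and 148706 in the GFP library, and 4589 genes had at least 20 UMIs over both and are called measured. Ratios are log2 of sponge over GFP CPM with 0.5 added to both counts. Of the 4589 genes, 518 (11.3%) were at least 2-fold higher and 222 (4.84%) at least 2-fold lower, with a median log2 ratio of 0.13. Of 578 measured genes at least 2-fold over other kept cells, 195 (33.7%) were at least 2-fold higher and 8 (1.38%) at least 2-fold lower, with a median of 0.72. Of 178 at least 10-fold over other cells, 62 (34.8%) were higher and 4 (2.25%) lower, with a median of 0.76. These enriched genes were picked on counts summed over both libraries, of which sponge cells gave the larger part, so a gene could pass through the sponge side alone, and the shares and medians are a description. With the CPM of each library weighing the same, a choice made after these values were seen, the median was 0.66 over 534 genes at least 2-fold over other cells and 0.73 over 173 genes at least 10-fold over them.

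Rod transcripts, which in droplets of other cells can come from free RNA, were lower in the sponge library. The 12 genes of the rod list, all of them measured, summed to 6991 CPM in the sponge library and 10773 CPM in the GFP library. The per-cell median was 0.617% of UMIs (0.134 to 2.57) in sponge cells and 1.15% (0.291 to 2.23) in GFP cells. All 12 were below 0, with a median log2 ratio of -0.59. The bipolar list summed to 2323 CPM in the sponge library and 4599.7 CPM in the GFP library, with 7 of 8 measured genes below 0. The Müller glia list summed to 2784 CPM in sponge cells and 3578 CPM in GFP cells. Of its 816 UMIs in sponge cells 316 lay in 1 cell of 13576 UMIs, which held 2 of the 22 T cell genes. The list's median, -0.39, was -1.27 without the 10% of cells with the most UMIs. Scaling by the total of the genes at least 10-fold over other cells lowered the median of all genes by 0.65, to -0.52. The part of free RNA in the ratios was not tested. Transcripts of other leukocytes were scarce within the T and NK cells of both libraries, in part because the rule left out cells with some of them. The macrophage list summed to 71.6 CPM in sponge cells and 80.7 CPM in GFP cells, with 7 of its genes at 0 in each library, C1qa, C1qb and Csf1r among them by rule. The B cell list summed to 58.0 CPM in sponge cells, with 4 genes at 0, and 20.2 CPM in GFP cells, with 8 genes at 0, Cd79a among them by rule.

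Genes of activation and of inhibitory checkpoints were higher in the sponge library. Of the 14 genes of this list 11 were measured, all 11 were above 0, and 6 were at least 2-fold higher. Of all measured genes 11.3% were at least 2-fold higher. Of the 534 enriched genes picked with equal weight 437 were above 0 and 31.5% were at least 2-fold higher. The list's median log2 ratio was 1.14, against 0.13 for all measured genes and 0.66 for enriched genes picked with equal weight. Tnfrsf9 (chr4:150914562-150946102, plus strand), the co-stimulatory receptor 4-1BB that appears on T cells after stimulation, had 74 UMIs in 22 cells, 252 CPM (198 to 317), in the sponge library. It had 4 UMIs in 4 cells, 26.9 CPM (7.33 to 68.9), in the GFP library, a log2 ratio of 3.07 (1.81 to 5.14). The intervals of the 2 levels do not overlap. With each cell thinned to 1000 UMIs it was detected in 13.04% of the sponge cells and 7.14% of the GFP cells.

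Ctla4 (chr1:60887000-60915832, plus strand) stood at 719.9 CPM (626 to 824) in the sponge library, from 211 UMIs in 27 cells. It stood at 235 CPM (164 to 327) in the GFP library, from 35 UMIs in 12 cells, of which 18 lay in the dividing cell. The log2 ratio was 1.60 (1.09 to 2.17), and 2.36 without the cell of most Ctla4 UMIs in each library. A cell of the sponge library held 0 to 34 Ctla4 UMIs with a median of 2, and one of the GFP library 0 to 18 with a median of 0. The share of cells was 58.7% (43.2 to 73.0) in the sponge library and 21.4% (11.6 to 34.4) in the GFP library, and at 1000 UMIs 41.3% of sponge cells and 14.3% of GFP cells. In bipolar neurons it was 0.409% in the sponge library and 0.335% in the GFP library. Cells with at least 5 Ctla4 UMIs numbered 14 in the sponge library, of which 10 held a CD8 gene, 12 held Pdcd1 and 1 held Foxp3.

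Pdcd1, the inhibitory receptor PD-1, had 60 UMIs in 23 cells of the sponge library and 9 UMIs in 8 cells of the GFP library, a log2 ratio of 1.69 (0.74 to 2.95). Havcr2, the checkpoint receptor TIM-3, had 19 UMIs in sponge cells and 1 in GFP cells, and Tigit 19 in sponge cells and 4 in GFP cells. Tox, a transcription factor of chronically stimulated T cells, was 1245 CPM (1121 to 1379.8) in the sponge library and 800.2 CPM (663 to 958) in the GFP library, a log2 ratio of 0.63. Icos, in contrast, had 98 UMIs in sponge cells and 45 in GFP cells, a log2 ratio of 0.14 (-0.38 to 0.69), within counting error of no difference.

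NK receptors that CD8 T cells also carry stood higher in the sponge library. Klrd1 (chr6:129591782-129598775, plus strand) was 334 CPM (271 to 407) from 24 cells in the sponge library and 67.2 CPM (32.2 to 124) from 9 cells in the GFP library, a log2 ratio of 2.25 (1.37 to 3.42). At 1000 UMIs it was detected in 21.7% of sponge cells and 7.14% of GFP cells. Klrk1 stood at 365 CPM (299 to 441) in sponge cells and 101 CPM (56.5 to 166) in GFP cells, a log2 ratio of 1.82. Of the 16 genes of the NK list 4 outside the rule were measured, of which 3 were at least 2-fold higher and 1, Xcl1, at least 2-fold lower. Among enriched genes picked with equal weight 31.5% were at least 2-fold higher and 2.25% at least 2-fold lower. Klra4, Klra8 and Klra9, NK receptors of the Ly49 family, had 0 UMIs in both libraries. Of 12 genes of CD8 and granule function 4 outside the rule were measured, and all 4 were above 0, Fasl at a log2 ratio of 1.89 (0.37 to 4.45), Cd8b1 at 1.43 (0.46 to 2.70), Ctsw at 0.96 and Cd8a at 0.88.

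Receptors for cytokines and for homing followed. Of 12 cytokine receptor genes 9 were measured, all 9 were above 0 and 6 were at least 2-fold higher, with a median log2 ratio of 1.21. Of the 534 enriched genes picked with equal weight 437 were above 0 and 31.5% were at least 2-fold higher. Il2rb, the beta chain of the interleukin-2 and interleukin-15 receptors, had 79 UMIs in 24 cells of the sponge library and 10 UMIs in 9 cells of the GFP library, a log2 ratio of 1.94 (1.05 to 3.12). Il18r1 had 92 UMIs in sponge cells and 16 in GFP cells, a log2 ratio of 1.51, while Il7r had 68 in sponge cells and 32 in GFP cells, a log2 ratio of 0.10 (-0.52 to 0.76). Cxcr6 stood at 429.9 CPM (358 to 512) in the sponge library and 141 CPM (87.4 to 216) in the GFP library, a log2 ratio of 1.58. Ccr2 had 25 UMIs in sponge cells and 13 in GFP cells, a log2 ratio of -0.06. Of 16 chemokine receptors and integrins 7 were measured, of which 4 were at least 2-fold higher, beside the 31.5% of enriched genes, with a median of 1.03.

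**Figure D3:**
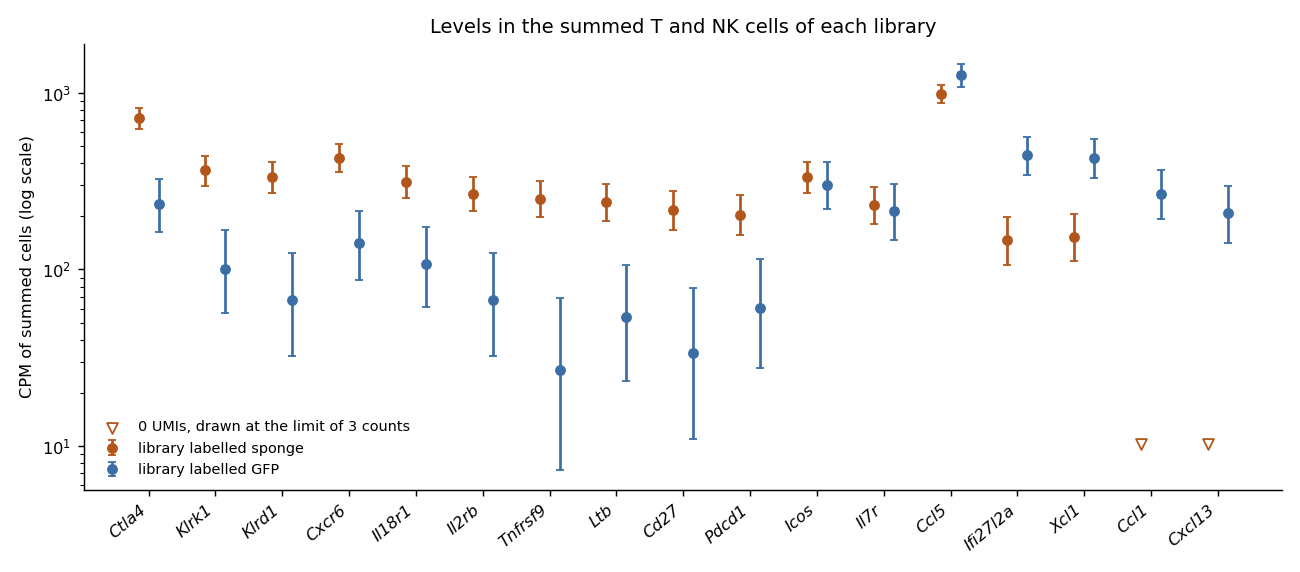
Levels of 17 genes in the summed T and NK cells, in CPM on a log scale, with exact 95% Poisson intervals for counting error, in the library labelled sponge (left of each pair) and the library labelled GFP (right). Open triangles mark 0 UMIs, drawn at the limit of 3 counts. Ctla4 through Pdcd1 lie higher in the library labelled sponge, Icos and Il7r overlap, and Ifi27l2a, Xcl1, Ccl1 and Cxcl13 lie lower in it.

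Cd27 (chr6:125232622-125237010, minus strand), a co-stimulatory receptor of the same family as Tnfrsf9, had 64 UMIs in 25 cells of the sponge library and 5 UMIs in 5 cells of the GFP library. The levels were 218 CPM (168 to 279) in sponge cells and 33.6 CPM (10.9 to 78.5) in GFP cells, a log2 ratio of 2.57 (1.40 to 4.37). Ltb, lymphotoxin beta, had 71 UMIs in sponge cells and 8 in GFP cells, a log2 ratio of 2.09 (1.11 to 3.44). Serpinb9, an inhibitor of granzyme B, had 41 UMIs in 6 sponge cells and 2 UMIs in 2 GFP cells, a log2 ratio of 3.07 (1.43 to 6.47), with 63.4% of the sponge UMIs in 2 cells.

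The receptor complex itself differed less. Of 12 genes 7 outside the rule were measured, of which 5 were above 0, none was at least 2-fold higher and 1, Trdc, was at least 2-fold lower, with a median of 0.14. Cd247, the CD3 zeta chain, had 55 UMIs in sponge cells and 24 in GFP cells, a log2 ratio of 0.20 (-0.50 to 0.97), and Cd28 83 in sponge cells and 38 in GFP cells, a log2 ratio of 0.14. Trbc1, at 0.13, is a near copy of Trbc2, and reads of the pair may be split unevenly. Trac had 65 UMIs in 28 sponge cells and 18 UMIs in 15 GFP cells, a log2 ratio of 0.84 (0.10 to 1.71). Of 14 signalling genes 11 were measured, of which 10 were above 0 and 1, Lcp2, the adaptor SLP-76, was at least 2-fold higher, at 1.58 (0.19 to 3.70), with a median of 0.59. Themis at 0.76, Skap1 at 0.59 and Grap2 at -0.29.

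Transcription factors of lymphocytes had a median of 0.68 over 14 measured of 16 genes, of which 12 were above 0 and 3 at least 2-fold higher. Of the enriched genes picked with equal weight 31.5% were at least 2-fold higher. Ikzf3, the factor Aiolos, was at 1.43 (0.84 to 2.11), from 140 UMIs in sponge cells and 26 in GFP cells. Tbx21, which directs type 1 responses, had 17 UMIs in sponge cells and 3 in GFP cells. Bach2, a factor that holds T cells in a resting or memory state, had 169 UMIs in sponge cells and 41 in GFP cells, a log2 ratio of 1.05 (0.56 to 1.59). Runx3, needed by CD8 and resident cells, had 35 UMIs in sponge cells and 20 in GFP cells, a log2 ratio of -0.19. Of 12 genes of tissue residency 9 were measured, of which 5 were above 0, with a median of 0.42. Rgs1 was at 1.04 and Cd69, which keeps T cells in tissue, at 0.88 (-0.38 to 2.55). Itgae, the integrin CD103, had 1 UMI in sponge cells and 4 in GFP cells, and Zfp683, the factor Hobit, 0 in both. The CD4 list had a median of 0.65 over 6 measured of 10 genes, with Ikzf2 at 1.14 and Tnfrsf18 at 1.54 higher, and Cd4 itself at 0.16. The naive list had a median of 0.23 over 6 genes, and the lists of gamma-delta and of type 2 innate cells medians of 0.17 and 0.08 over 4 genes each.

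**Figure D4:**
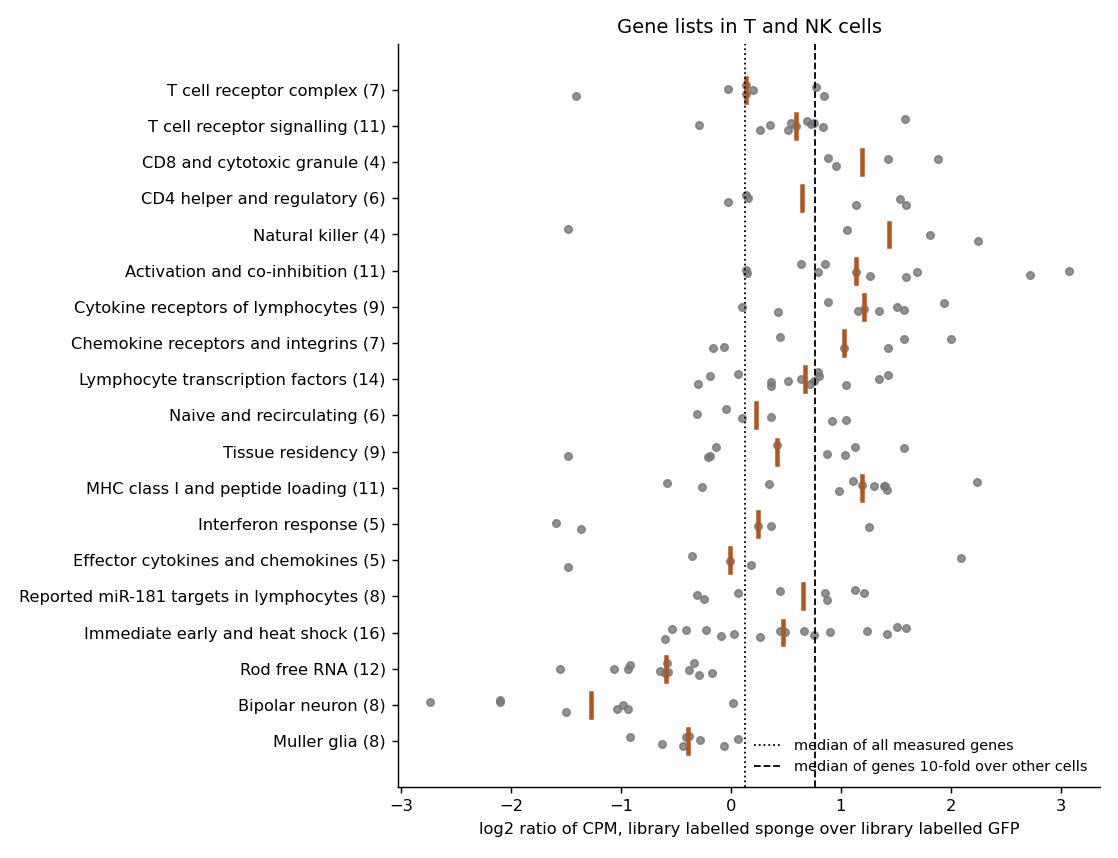
Log2 ratios of CPM, sponge over GFP, for the measured genes of 19 lists (points, their number in brackets), with each list's median as a bar. The dotted line is the median of all 4589 measured genes, 0.13, and the dashed line that of the 178 genes at least 10-fold over other kept cells, 0.76. Activation, cytokine receptor and NK genes lie mostly right of the dashed line, most of the receptor complex left of it, and all 12 rod genes, 7 of 8 bipolar and 7 of 8 Müller genes left of 0.

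A group of chemokines was lower in the sponge library, and it rested on 3 cells. Xcl1 (chr1:164931644-164935527, minus strand) had 45 UMIs in 7 cells of the sponge library, 25 of them in 1 cell, and 64 UMIs in 5 cells of the GFP library. The levels were 154 CPM (112 to 205) in sponge cells and 430.4 CPM (331 to 549.6) in GFP cells, a log2 ratio of -1.48 (-2.07 to -0.91), although more cells of the sponge library held the gene. Ccl1, a ligand of CCR8, had 0 UMIs in the sponge library and 40 UMIs in 3 cells of the GFP library. It was 26.3-fold lower against 3 counts, and the interval of its log2 ratio ended at -4.35. Cxcl13 (chr5:95956951-95961068, plus strand), the chemokine that calls B cells to follicles, had 0 UMIs in the sponge library and 31 UMIs in 4 cells of the GFP library. It was 20.4-fold lower against 3 counts, and its interval ended at -3.96.

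The 3 GFP cells with Ccl1 had 2558, 3796 and 5637 UMIs. They held 8, 11 and 21 Ccl1 UMIs, 12, 16 and 18 Xcl1 UMIs and 6, 11 and 13 Cxcl13 UMIs, and each held a CD8 gene. Their barcodes differed from each other by at least 10 bases. Without these 3 cells, which were chosen after their values were seen, Xcl1 had 18 UMIs in the GFP library and its log2 ratio turned to 0.20, and Cxcl13 had 1 UMI. In other kept cells Ccl1 had 28 UMIs in the sponge library and 10 in the GFP library, and Cxcl13 had 893 in the sponge library and 211 in the GFP library.

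Ccl5 (chr11:83525778-83530518, minus strand) had 290 UMIs in 22 cells of the sponge library, 70 of them in 1 cell, and 188 UMIs in 23 cells of the GFP library, 46 of them in 1 cell. The levels were 989 CPM (879 to 1110.1) in sponge cells and 1264 CPM (1089.97 to 1458) in GFP cells, a log2 ratio of -0.36 (-0.62 to -0.08). The shares of cells were 47.8% in the sponge library and 41.1% in the GFP library, and at 1000 UMIs 32.6% of sponge cells and 32.1% of GFP cells. In bipolar neurons they were 1.75% in the sponge library and 0.670% in the GFP library. Ifng, interferon gamma, had 14 UMIs in 4 sponge cells and 6 UMIs in 5 GFP cells, a log2 ratio of 0.18 (-1.23 to 1.91). Ccl4 had 22 UMIs in sponge cells and 11 in GFP cells. Tnf, Il2, Il4, Il10, Il21 and Csf2 had at most 1 UMI in either library.

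**Figure D5:**
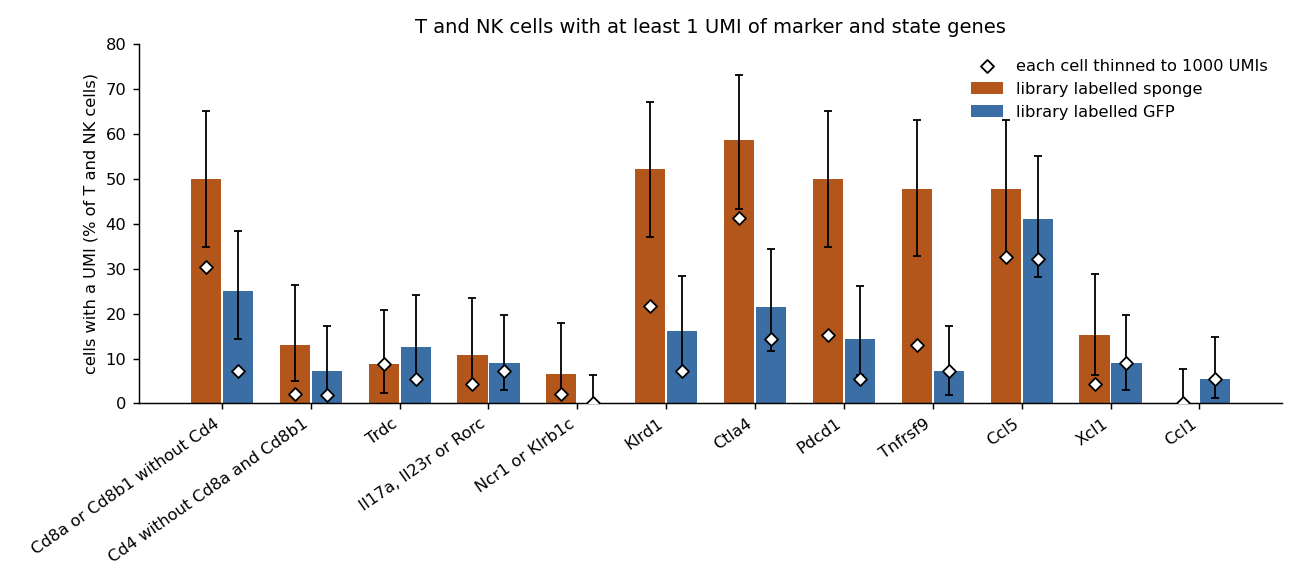
Percent of T and NK cells with at least 1 UMI of the gene or genes on the x axis, in the library labelled sponge (left bar of each pair, 46 cells) and the library labelled GFP (right bar, 56 cells), with exact 95% binomial intervals for counting error. White diamonds give the share after each cell was thinned to 1000 UMIs. Ctla4 stands at 58.7% of sponge cells and 21.4% of GFP cells, while Ccl5, once thinned, stands at 32.6% of sponge cells and 32.1% of GFP cells.

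Genes of MHC class I and peptide loading were higher in the sponge library, in T and NK cells and in other kept cells alike. Of 14 genes 11 were measured, of which 7 were at least 2-fold higher, against 11.3% of all measured genes. Their median was 1.19 in T and NK cells and 1.42 in all other kept cells. H2-D1 (chr17:35262730-35267499, plus strand) had 358 UMIs in 44 sponge cells, 1221 CPM (1098 to 1355), and 79 UMIs in 37 GFP cells, 531 CPM (421 to 662). Reads of H2-K1, H2-D1 and other near copies may be split unevenly. Nlrc5, which switches these genes on, had 32 UMIs in sponge cells and 3 in GFP cells, a log2 ratio of 2.24, and Psmb8, of the immunoproteasome, 70 in sponge cells and 13 in GFP cells, at 1.41.

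Interferon response genes had a lower median ratio here than in the rest of the tissue. Of 24 genes 5 were measured, and they had a median of 0.24 in T and NK cells and of 1.16 in other kept cells, and they summed to 853 CPM in the sponge library and 1143 CPM in the GFP library. Ifi27l2a (chr12:103442167-103443680, minus strand), an interferon-induced gene, had 43 UMIs in 20 sponge cells, 147 CPM (106 to 198), and 66 UMIs in 18 GFP cells, 444 CPM (343 to 565), a log2 ratio of -1.59 (-2.19 to -1.02). Ifi203 was at -1.36, with near copies among its neighbours. The list's median ranged from -1.33 to 0.66 over the alternatives, so no direction is given for it.

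The cells with a CD8 gene and no Cd4 were compared apart, since their share differed. They were 23 sponge cells with 134563 UMIs and 14 GFP cells with 41256 UMIs. Within them Ctla4 had 121 UMIs, 899 CPM, in sponge cells and 3 UMIs, 72.7 CPM, in GFP cells, a log2 ratio of 3.41 (2.05 to 5.93). Klrd1 had 84 UMIs in sponge cells and 4 in GFP cells, a log2 ratio of 2.53 (1.28 to 4.596), and Cxcr6 80 in sponge cells and 4 in GFP cells, at 2.46 (1.20 to 4.53). Tnfrsf9 had 56 in sponge cells and 3 in GFP cells, at 2.31 (0.90 to 4.84), and Pdcd1 46 in sponge cells and 4 in GFP cells, at 1.66 (0.36 to 3.75). Cd27 had 44 UMIs in the sponge library and 0 in the GFP library. Ccl5 was at 0.10 (-0.27 to 0.51) and Xcl1 at -2.35 (-2.97 to -1.77). The Xcl1 ratio rested on few cells, with 40 UMIs in 5 sponge cells and 63 UMIs in 4 GFP cells, 3 of them the cells with Ccl1. These receptor genes were thus also higher within the CD8 cells, whose median depth was 5080 UMIs in sponge cells and 2603.5 UMIs in GFP cells.

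Targets reported for miR-181 in lymphocytes had a median of 0.65 over 8 measured of 9 genes, beside 0.66 for enriched genes picked with equal weight. Of them 6 were above 0 and 2 at least 2-fold higher, where 31.5% of those enriched genes were at least 2-fold higher. Bcl2, which protects lymphocytes from death, had 93 UMIs in 26 cells of the sponge library and 20 UMIs in 13 cells of the GFP library, a log2 ratio of 1.21 (0.53 to 2.01), and Dusp5, a phosphatase of ERK, 62 UMIs in 29 sponge cells and 14 UMIs in 14 GFP cells, at 1.13 (0.31 to 2.12). Both hold 1 of the matches shown above, as do Cd69, at 0.88, and Nlk, a kinase, at 0.45. Ptpn22, a phosphatase of receptor signalling without a match, was at 0.86 (0.33 to 1.45), from 130 UMIs in sponge cells and 36 in GFP cells. S1pr1, the receptor for leaving tissue, had 13 UMIs in sponge cells and 8 in GFP cells, at -0.31. Of the 578 genes enriched in the class, 140 with a match had a median of 0.79 and 35% of them were at least 2-fold higher, against 0.69 and 33.9% for 419 without a match. Of the 178 genes at least 10-fold over other cells, 35 with a match had a median of 0.72 and 129 without a match 0.80, in the other order.

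By rule, the genes with the highest ratios included Nrg1, Rbfox1, Gabrg3, Sgcz, Cntnap2, Lingo2 and Anks1b, which are best known from neurons. The 3 deepest cells of the sponge library, with 15917, 18665 and 15668 UMIs, held between 74.9% (Cntnap2) and 100% (Sgcz) of the UMIs of each of these 7 genes in sponge cells. The cell of 15917 UMIs held 145 of 156 Nrg1 UMIs, 94 of 141 of Rbfox1, 75 of 87 of Gabrg3 and 36 of 38 of Dync1i1. The cell of 18665 UMIs held 68 of 101 Lingo2 UMIs. These 3 cells held 9, 10 and 13 of the 22 T cell genes as well, and whether each droplet held 1 cell or more was not tested. Without the 10% of cells with the most UMIs the median of the activation list was 1.53, and it ran from 0.48 to 1.73 over all alternatives.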

How the data were processed

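The authors deposited raw UMI counts per gene and barcode for each library, without normalization (10x 3′ chemistry v3.1, per the labels' protocols). Per the submitters' processing notes, reads were counted by Cell Ranger 7.0.0 with build mm10. Cell calling and the treatment of introns are not given in the sources used here. Barcodes with at least 500 UMIs, at least 300 genes and at most 25% mitochondrial UMIs were kept, which removed 67 in the sponge library and 176 in the GFP library. No doublet caller was run, and the 8 exclusion genes and an alternative without the 10% of deepest cells stand in for one.

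Counts of the chosen cells were summed per library and scaled to CPM. A gene was measured with at least 20 counts over both libraries, and 0.5 was added to each count for ratios. Intervals are exact: Poisson for CPM, Clopper-Pearson for shares, conditional binomial for ratios, all at 95% and for counting error only. A fold against 0 counts is taken against 3 counts, which lies below the upper end of the exact interval for 0 counts. Free RNA was gauged in bipolar neurons, cells with at least 4 of 9 bipolar genes making up at least 1% of their UMIs, and in thinned cells.

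The members, the 34 gene lists and the tests were chosen with earlier results of these data known. Named identity genes are the 30 with the highest ratio over other kept cells among those with at least 100 counts. Named genes of the comparison are the 12 highest and 12 lowest by the interval bound nearest 0, among genes at least 2-fold over other kept cells, and members of lists were named as well. The 6 rule markers stayed out of list medians. Ratios were also run on simulated counts. Each count was drawn independently, as the intervals assume, so the simulation cannot speak to UMIs clumped in few cells. Annotated 3′ UTRs are those of GENCODE M21. Python 3.11.15, numpy 2.4.6, scipy 1.17.1, pandas 2.3.3 and matplotlib 3.10.9 were used. Some genes of the lists are not reported here.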

Additional observations from a re-analysis of the deposited data

How the results depend on the processing

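With 1 library per group there was no replicate to leave out. No paired analysis was possible because each group is 1 library whose cells are not tied to mice. Depth limits the shares, and genes of few UMIs, most of all in the GFP library. Alternatives without exclusion genes, with kept cells thinned to 1000 UMIs, with the total of genes 10-fold over other cells and with CD8 cells alone were chosen after seeing the data.

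The log2 ratio of the share of T and NK cells was 0.48. Under a stricter filter on cells (at least 1000 UMIs and 500 genes, at most 10% mitochondrial UMIs) it became 1.25 (0.45 to 2.09). It became 1.33 (0.55 to 2.12) with 3 of 6 markers and 1.26 (0.54 to 1.99) with kept cells thinned to 1000 UMIs. It was 0.47 (-0.16 to 1.10) without the 10% of deepest cells and 0.43 (-0.006 to 0.86) without exclusion genes. The percent of genes at least 2-fold higher, 11.3, became 17.99 in CD8 cells alone, 3.36 with the total of genes 10-fold over other cells and 17.2 with no filter beyond 1 count. The percent at least 2-fold lower, 4.84, became 7.79 in CD8 cells alone, 7.76 with median-of-ratios scaling, 22.9 with the total of genes 10-fold over other cells, 11.04 with cells thinned to 500 UMIs and 16.01 with no filter. These scalings set the split of higher against lower genes, and the median of all genes was 0.13, -0.03 with median-of-ratios scaling, 0.04 without mitochondrial, haemoglobin, rod and Lcn2 counts and -0.52 with the total of genes 10-fold over other cells. That last total also turned the medians of the lists of T cell receptor signalling to -0.060, of CD4 genes to -0.0068 and of miR-181 targets to -0.00061, and put those of the receptor complex at -0.52, gamma-delta genes at -0.48, type 2 innate lymphoid genes at -0.57, naive genes at -0.42, tissue residency at -0.24, interferon response at -0.41 and immediate early genes at -0.18. Effector cytokines ran from -0.71 to 1.52 and cell cycle genes from -1.92 to 0.57 over all alternatives. The melanocyte list, 1.19 with all cells, turned to -0.75 without exclusion genes and -1.91 in CD8 cells alone. The cause of each was not tested beyond what the setting itself leaves out. Medians of the lists of activation (0.48 to 1.73), cytokine receptors (0.56 to 2.14), NK genes (0.43 to 2.24), chemokine receptors (0.38 to 2.14) and MHC class I (0.54 to 1.54) stayed above 0 under every alternative that gave a value. In that order these medians were 0.58, 0.79, 1.98, 0.75 and 1.42 under the stricter filter. With 3 of 6 markers they were 0.69, 0.71, 0.43, 0.94 and 0.67. The median of enriched genes picked with equal weight, 0.66 in the main setting, was not computed under these settings. Of 23 lists, 13 had a median on the other side of 0 from its main value under at least 1 alternative.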

Other observations

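Other gene groups of the T and NK cells were described by the same sums. The 16 immediate early and heat shock genes, all measured, had a median log2 ratio of 0.47, 11 above 0 and 4 at least 2-fold higher, against 11.3% of all measured genes. In other kept cells the median of this list was 0.65. Atf3 was at 1.59, Btg2 at 1.51 and Junb at 1.42, while the chaperone Hspe1 was at -0.60. The 5 measured of 14 cell cycle genes had a median of -0.28 and all lay below 0, but that median ran from -1.92 to 0.57 over the alternatives, above 0 under 3 of them. One GFP cell of 6444 UMIs held 69 of the 199 cell cycle UMIs of the GFP cells. Mki67 had 0 UMIs in the sponge library and 14 UMIs in the GFP library, all in 1 cell. Tmsb10, an actin-binding protein, was at -0.64, from 144 UMIs in sponge cells and 114 in GFP cells. Crip1 was at -1.002, from 63 in sponge cells and 64 in GFP cells, and the ribosomal genes Rps27 and Rplp2 at -0.73 and -0.37. In other kept cells Tmsb10 was at -0.81, Crip1 at -0.77, Rps27 at -0.94 and Rplp2 at -0.35. The lower ratios of these genes were thus not particular to T and NK cells.

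Genes of red blood cells, melanocytes and MHC class II were also read in these cells. Red blood cell genes summed to 51.2 CPM in the sponge library and 1634 CPM in the GFP library, where 3 cells held 86, 83 and 58 of the 243 UMIs. The 4 measured of 6 melanocyte genes had a median of 1.19, and Gpnmb had 168 UMIs in the sponge library, of which 138 lay in 1 cell of 15668 UMIs. Of the 215 UMIs of the melanocyte list in sponge cells 120 lay in 1 cell of 11761 UMIs. MHC class II genes, none of them measured, summed to 78.5 CPM in sponge cells and 87.4 CPM in GFP cells, and those of neutrophils to 3.41 CPM in sponge cells and 6.72 CPM in GFP cells. Il13, Il5 and Klrg1, of type 2 innate cells, had 0 UMIs in both libraries.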
